A study of Mus musculus with 3 samples.

Results

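Where exons of 2 protein-coding genes lie on opposite strands of the same DNA, the mature transcripts can pair. Every such stretch of 20 nt or more was taken from GENCODE M21 (mouse, GRCm38), leaving out Pdzd11 and Kif4. This gave 2139 stretches in 1412 gene pairs, which involve 2639 of the 21951 protein-coding genes. By the spans of the genes, 477 pairs were head-to-head (the 5' ends overlap), 779 were tail-to-tail (the 3' ends overlap) and 156 were nested (the span of 1 gene lies inside the other). The median stretch was 143 nt long in head-to-head and 183.5 nt in tail-to-tail pairs. Uniquely placed small RNA reads were counted inside these stretches in 3 libraries made from mouse oocytes at full size, collected before ovulation. PMSG, a hormone that stimulates the follicles, had been given to all females at 5 IU, 48 hours ahead of collection. RNA was cut from gels at 19-24 nt, 24-30 nt or 19-30 nt, with 1 library per window. No difference therefore has a replicate check, no test is given, and 95% intervals cover counting error only.

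Endogenous siRNAs are cut by Dicer from double-stranded RNA and guide Argonaute proteins to matching transcripts. Dicer leaves duplexes of about the length of a microRNA with short 3' overhangs. Mouse oocytes are known for such siRNAs, which come from inverted repeats, from pairs of genes and pseudogenes, and from overlapping transcripts of opposite strands. piRNAs, the longer germline small RNAs bound by PIWI proteins, are made from single-stranded precursors without Dicer.

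The following reads are shown as examples of opposite-strand inserts whose 5' ends overlap by 19 or 20 nt, and were chosen after their values were seen. Dicer duplexes of 21 and 22 nt would leave such overlaps. In tail-to-tail pairs they made up 8.68% of overlaps of 1 to 30 nt, counted as the span between the 5' ends. An even spread gives 6.67%, a value inside the counting interval, so no excess was seen. Whether Dicer cut these reads was not tested. Each pair shares 19 or 20 nt between its 5' ends, and capitals mark the shared bases. Sequences are given 5' to 3' as DNA, read from the deposited files and placed on GRCm38. The inserts of Gtf3a (chr5:146955460-146955481, plus strand) and Mtif3 (chr5:146955458-146955479, minus strand) both run 2 nt past the shared part.
Gtf3a, 22 nt: TAACGCCAGCGCAGAGTCCAgc
Mtif3, 22 nt: TGGACTCTGCGCTGGCGTTAgg
A second couple of the same genes, at chr5:146955528-146955548 and chr5:146955526-146955546, has the same geometry with 19 shared bases.
Gtf3a, 21 nt: TCTGCTAGGCGGGAAGACTtc
Mtif3, 21 nt: AGTCTTCCCGCCTAGCAGAca
Bud31 (chr5:145147903-145147923, plus) and Ptcd1 (chr5:145147900-145147921, minus) gave inserts of unequal length.
Bud31, 21 nt: CATCCTGGTCTTTGGACCTtg
Ptcd1, 22 nt: AGGTCCAAAGACCAGGATGcag
Ppib (chr9:66065603-66065622, plus) and Snx22 (chr9:66065600-66065621, minus) gave a couple of unequal ends in the pair with most reads.
Ppib, 20 nt: ATAACCACAGTCAAGACCTc
Snx22, 22 nt: AGGTCTTGACTGTGGTTATgaa

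Head-to-head pairs had no such couple. No head-to-head insert was read more than 1 time in a library. The reads shown for Trmt112 (chr19:6909882-6909903, plus) and Prdx5 (chr19:6909905-6909926, minus) are 1 insert of each strand of a head-to-head pair. They do not overlap, while 6 of the 8 head-to-head couples whose 5' ends overlap by 1 to 30 nt were in this pair.
Trmt112, 22 nt: aatgtgttcgttttacctgcgc
Prdx5, 22 nt: acgtgtaaaccggctgcgttac

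The 19-24, 24-30 and 19-30 nt libraries held 681025, 1423896 and 438858 usable inserts, of which 206134, 171655 and 45492 had a single place among annotated transcripts. Outside annotated small RNA genes, 18744, 112517 and 26584 reads could be placed without a splice junction. The libraries are bulk RNA, so fewer cells of a type and less RNA per cell cannot be told apart. All 10 oocyte marker genes listed (Zp1 to Zp3, Gdf9, Bmp15 and others) had sense reads, 97 in all. These were 27, 37 and 33 in the 19-24, 24-30 and 19-30 nt library. Of 7 granulosa cell genes 6 had sense reads, with 24, 68 and 0 in the 19-24, 24-30 and 19-30 nt library. Of 6 stroma, vessel and blood genes 4 had sense reads, with 4, 11 and 1. The origin of these reads was not examined, and they are no measure of mRNA levels.

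Tail-to-tail overlaps carried most of the reads. Their stretches held 1474 uniquely placed reads, against 141 in head-to-head and 69 in nested stretches. Per 1000 mappable positions, which are windows of 20 nt found at a single place, this was 3.32 reads in tail-to-tail, 1.45 in head-to-head and 0.829 in nested pairs. The tail-to-tail density was 2.29 times the head-to-head density (counting interval 1.93 to 2.75). This depended on the library. The ratio was 3.54 (2.74 to 4.66) in the 19-30 nt library, 1.81 (1.32 to 2.53) at 19-24 nt and 0.683 (0.463 to 1.03) at 24-30 nt, and it was 1.31 (1.03 to 1.69) without the 19-30 nt library. These settings were chosen after seeing the data. Reads were present in 202 of 779 tail-to-tail pairs (25.9%), in 67 of 477 head-to-head pairs (14%) and in 22 of 156 nested pairs (14.1%). Among 218788 coding exons without an overlap 5.68% held a read, where an exon is a single block and a pair can hold several stretches. Reads were scattered over many positions: the 1474 tail-to-tail reads had 1347 distinct 5' ends, counted per library, and no insert was read more than 4 times in a library.

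Reads of both strands were found in 90 tail-to-tail pairs (11.6%) and in 14 head-to-head pairs (2.94%). The share was 1.92% in nested pairs and 0.429% in coding exons without an overlap, where an exon is again a single block. These shares, and those of pairs with any read, were not corrected for size. The 779 tail-to-tail pairs had 443659 mappable positions and the 477 head-to-head pairs 97295. The share of a pair's reads on its lesser strand, summed over pairs, was 34.3% in tail-to-tail (506 reads, interval 31.9 to 36.8), 19.1% in head-to-head (27 reads, 13.0 to 26.6) and 10.1% in nested pairs (7 reads, 4.18 to 19.8). Among the 43 tail-to-tail pairs with 10 or more reads the median lesser-strand share was 41.7%, and 39 of these pairs had 25% or more. Only 2 head-to-head pairs reached 10 reads, with a median of 41.7% as well. A pair with 1 read has a lesser strand of 0 by construction, and 43 of the 67 head-to-head and 76 of the 202 tail-to-tail pairs with reads held 1 read. The summed shares therefore depend also on the number of reads per pair, and a difference in balance between the classes was not tested.

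**Figure D1:**
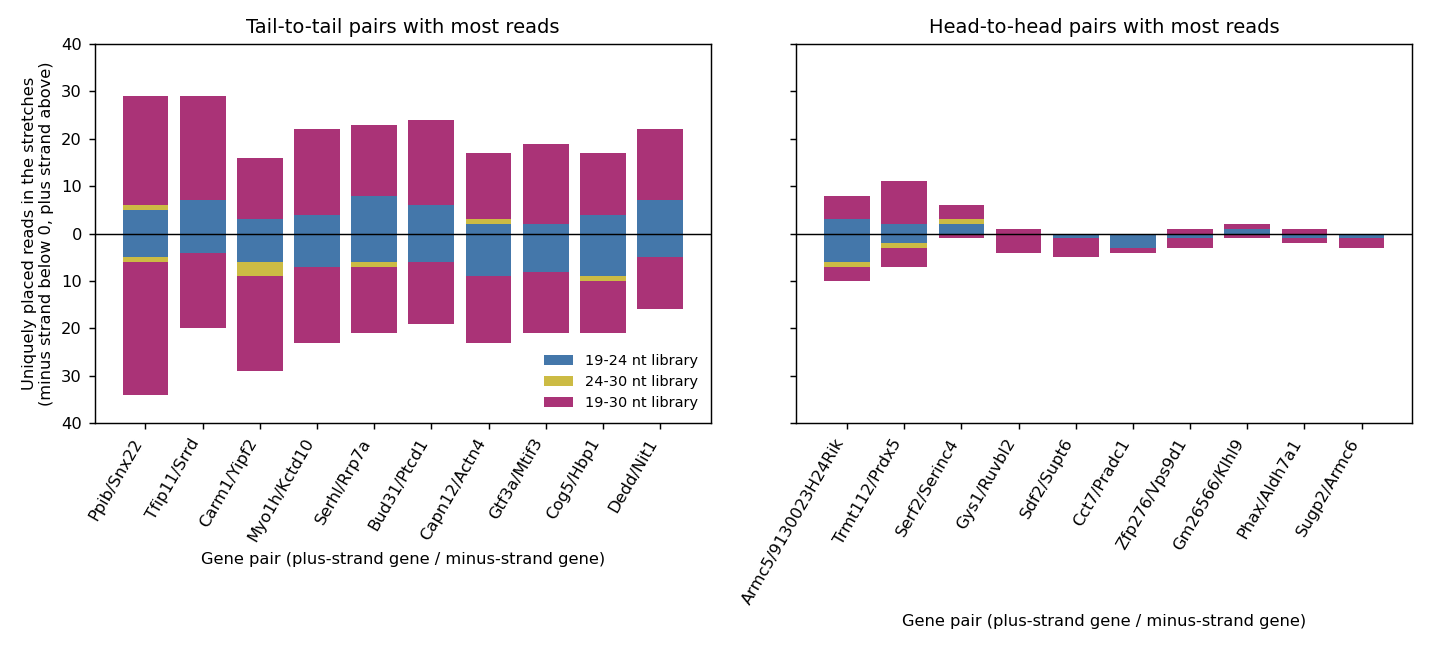
Uniquely placed reads (vertical axis, reads) in the stretches of the 10 tail-to-tail and 10 head-to-head pairs with most reads, plus strand above 0 and minus strand below, coloured by library. The tail-to-tail pairs hold 38 to 63 reads each on both sides of 0, and the head-to-head pairs 3 to 18.

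The pair with most reads was Ppib/Snx22. Ppib encodes cyclophilin B, a protein-folding enzyme of the endoplasmic reticulum, and Snx22 a sorting nexin. On the strand of Ppib 5, 1 and 23 reads were counted in the 19-24, 24-30 and 19-30 nt library, and on that of Snx22 5, 1 and 28. Both strands were high in the 19-30 nt library and nearly empty in the 24-30 nt library. Most of these reads (37 of 63) lay where coding sequence of Ppib faces the 3' UTR of Snx22, in stretches between chr9:66065176 and 66066623. The rest of the same exons, with 2778 mappable positions, held 0 reads, which allows up to 3.

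Tfip11/Srrd came next with 49 reads. Tfip11 acts in the release of spliced introns. Its strand had 7, 0 and 22 reads in the 3 libraries and the Srrd strand 4, 0 and 16. All 49 lay where the Tfip11 3' UTR faces Srrd coding sequence. Of 38 reads in the 19-30 nt library 27 were 20 to 23 nt long, a share below that of the other leading pairs.

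Carm1, an arginine methyltransferase of histones, and Yipf2, a Golgi protein, had 3, 0 and 13 reads on the Carm1 strand and 6, 3 and 20 on the Yipf2 strand. For Myo1h, a myosin, and Kctd10, a cullin adaptor, the counts were 4, 0 and 18 against 7, 0 and 16. Serhl and Rrp7a, a factor of ribosomal RNA processing, had 8, 0 and 15 against 6, 1 and 14. In all 3 pairs the 2 strands differed less than the libraries did, and the 24-30 nt library gave 3 reads at most on a strand.

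Bud31/Ptcd1 was the densest of the leading pairs. Bud31 is a splicing factor and Ptcd1 a mitochondrial RNA-binding protein, and their single stretch is 244 nt long (chr5:145147835-145148078). It held 6, 0 and 18 reads on the Bud31 strand and 6, 0 and 13 on the Ptcd1 strand, 191 reads per 1000 positions, with 0 in the rest of the exons over 710 positions. Capn12, a calpain, and Actn4, an actin cross-linker, followed with 136 reads per 1000 positions in a stretch of 316 nt, as 2, 1 and 14 against 9, 0 and 14 reads. In total stretch length per pair these 2 were the shortest of the 10 leading pairs.

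Gtf3a, the transcription factor of 5S rRNA genes, and Mtif3, a mitochondrial translation factor, had 2, 0 and 17 reads against 8, 0 and 13. Cog5, a subunit of a Golgi tethering complex, and the transcription factor Hbp1 had 4, 0 and 13 against 9, 1 and 11. Dedd, a death effector domain protein, and Nit1, a nitrilase family member, had 7, 0 and 15 against 5, 0 and 11. Dedd/Nit1 was the only one of these 10 pairs with more than 2 reads in the rest of its exons (4 on the plus and 5 on the minus strand), where the stretch density was 3.95 times that of the rest (1.88 to 9.29).

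Pairs named for their overlaps of 5' ends had lesser-strand shares from 30.0% to 48.6%. Such an overlap needs reads on both strands, so the choice itself favours balanced pairs and the range is no result about them. Mest, an imprinted gene expressed from the paternal allele, and Copg2, a coatomer subunit, held 37 reads in 912 nt where the 3' UTRs face each other, 2, 0 and 17 against 7, 0 and 11. Exosc9, a subunit of the RNA exosome, and Ccna2, cyclin A2 of the cell cycle, held 34 reads, 3, 1 and 12 against 3, 0 and 15. Pdha1, the E1 alpha subunit of pyruvate dehydrogenase, overlaps Map3k15 and held 30 reads, 4, 0 and 17 on the Map3k15 strand against 2, 1 and 6. Amz1/Gna12, with a G protein alpha subunit, held 36 reads and Fam13c/Phyhipl 14, with lesser-strand shares of 44.4% and 42.9%.

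Not every tail-to-tail pair was balanced. Slc25a26, a mitochondrial carrier, and Lrig1 had 2 reads on the Slc25a26 strand and 31 on that of Lrig1. Nr2c2/Mrps25 had 11 reads on the strand of Nr2c2, a nuclear receptor, and 0 on the other, all 11 in the 24-30 nt library, at 0.961 times the density of its rest (0.378 to 2.44). These 2 pairs, Surf2/Surf4 (4 and 13 reads) and 1700030K09Rik/Cherp (11 and 3) were the 4 tail-to-tail pairs of 10 or more reads with a lesser strand under 25%, and were chosen after their values were seen.

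Head-to-head pairs were led by Trmt112/Prdx5 and Armc5/9130023H24Rik with 18 reads each. Trmt112 activates several methyltransferases and Prdx5 is a peroxiredoxin. Their stretch (chr19:6909698-6910106) held 2, 0 and 9 reads on the Trmt112 strand and 2, 1 and 4 on the Prdx5 strand, all where both 5' UTRs overlap, and the rest of the exons held 0. Armc5/9130023H24Rik (chr7:128237342-128238031) had 3, 0 and 5 against 6, 1 and 3, and its density was 30.0 times that of the rest (8.75 to 159). These 2 pairs gave 36 of the 141 head-to-head reads.

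The other head-to-head pairs held 7 reads or fewer. Gys1, muscle glycogen synthase, and Ruvbl2, an ATPase of chromatin complexes, had 1 and 4 reads, all in the 19-30 nt library. Supt6, a transcription elongation factor, had 1, 0 and 4 reads on its strand and Sdf2 had 0. Pradc1 had 3, 0 and 1, and Cct7, a chaperonin subunit, 0. Sugp2/Armc6, Gm26566/Klhl9 and Phax/Aldh7a1 held 3 reads each. Serf2/Serinc4, head-to-head by the gene spans, held 7 reads of which 6 lay where 3' UTRs overlap, so the span did not describe it.

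Zfp276/Vps9d1 had most of its reads outside the overlap. Its stretch of 154 nt on chromosome 8 held 1 read on the Zfp276 strand and 3 on the Vps9d1 strand. The rest of the same exons held 24 and 32, with 6, 0 and 18 on the plus and 9, 0 and 23 on the minus strand. They lay 13 to 549 nt from the stretch, between 123254066 and 123254916, 55 of the 56 in Zfp276 exons, and 0 of them were inside the spans of both genes. Of 41 such reads in the 19-30 nt library 92.7% were 20 to 23 nt long. Mrps7/Gga3 (6 and 8 reads outside, 1 inside) and Hirip3/Ino80e (10 and 22 outside, 0 inside) also had more reads of both strands outside than inside, as did the tail-to-tail pairs Mrnip/Sqstm1 (11 and 15 outside, 1 inside), Bmp6/Txndc5 (12 and 10, 0 inside) and Klhdc2/Nemf (12 and 10, 0 inside). Amz1/Gna12 (7 and 8 outside, 36 inside) and D10Wsu102e/Aldh1l2 (9715 and 1918 outside, 0 inside) also had reads of both strands there. These pairs were chosen after their values were seen, as pairs with at least 5 reads of each strand outside.

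Among nested pairs Prc1/Rccd1 had 6, 2 and 9 reads on the strand of Prc1, a cytokinesis factor, and 0 on the other, with 83 more in the rest of the exons, all on the Prc1 strand. Lrba/Mab21l2 held 14 reads, 4, 0 and 5 against 2, 0 and 3. Nr2c2ap/Rfxank held 6. Of 16 genes of small RNA pathways listed, Ago2 (tail-to-tail with Chrac1, 1 read) and Dgcr8 (tail-to-tail with Trmt2a, 2 reads) were in a pair, and Dicer1 was not. Of all 21951 protein-coding genes 2639 were in a pair, a share near that of this list.

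Density was then set against the rest of the same exons, outside any overlap. Over all pairs the ratio of stretch to rest was 1.23 in head-to-head (1.01 to 1.49) and 0.479 in tail-to-tail pairs (0.453 to 0.505). The tail-to-tail value was set by a single pair. D10Wsu102e/Aldh1l2 had 0 reads in its stretch and 11633 in the rest of its exons, 95.1% of all rest reads of the class, between 3987 and 121714 nt from the stretch, in a last exon that the annotation draws across most of the gene. Without that pair the ratio was 9.27 (8.42 to 10.2), with 1474 reads inside and 601 outside. This exclusion was chosen after seeing the data, and the head-to-head pair with most rest reads was left out in the same way: without Hes7/9130213A22Rik, with 0 reads inside and 102 outside, the head-to-head ratio was 1.56 (1.28 to 1.90).

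The ratio of the 2 classes turned with this exclusion. With all pairs the tail-to-tail ratio was 0.389 times the head-to-head ratio (conditional odds ratio interval 0.319 to 0.476), and without the 2 pairs it was 5.93 times as large (4.76 to 7.41). Of the 43 tail-to-tail pairs with 10 or more reads inside, 26 had 0 reads in the rest of their exons. Since these pairs were taken for their reads inside, this does not bear on the ratio of the class. Against all other exons of the same genes, which leaves the D10Wsu102e exon out, the ratio was 7.69 in tail-to-tail (7.19 to 8.23) and 3.49 in head-to-head pairs (2.91 to 4.16).

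**Figure D2:**
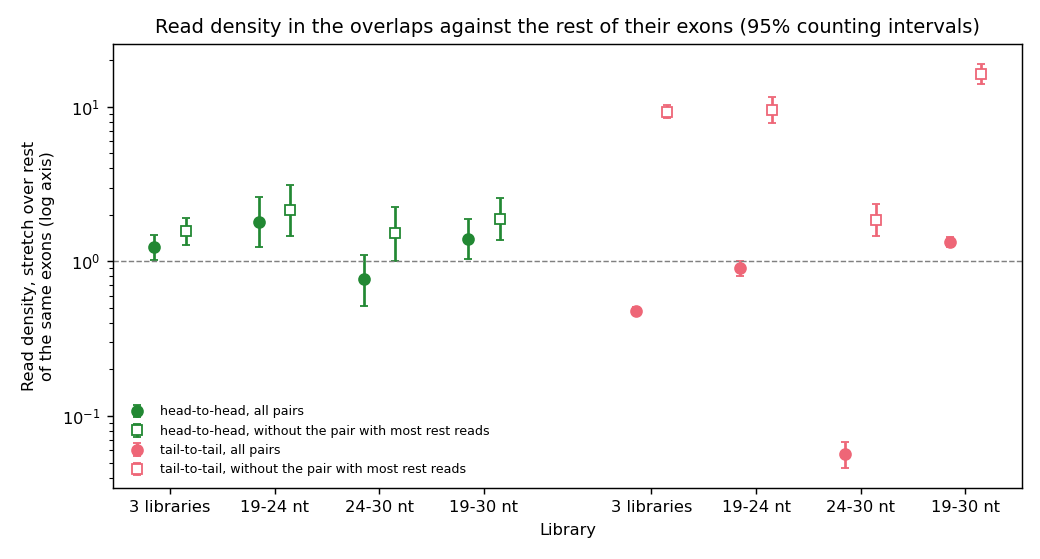
Read density in the stretches divided by that in the rest of the same exons (vertical axis, log scale, no unit), for the 3 libraries together and singly, with 95% counting intervals. Filled circles hold all pairs and open squares leave out the pair with most rest reads, which moves the tail-to-tail value from 0.479 to 9.27.

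The libraries differed in these ratios. Without D10Wsu102e/Aldh1l2 the tail-to-tail ratio reached 16.2 (14.1 to 18.8) in the 19-30 nt library. It was lower at 19-24 nt, with 9.46 (7.78 to 11.6), and lowest at 24-30 nt, with 1.85 (1.46 to 2.33). With all pairs it was 1.34, 0.902 and 0.0565 in the same order. Head-to-head ratios with all pairs were 1.40, 1.80 and 0.763. Without the pair with most rest reads in each library they were 1.89 (1.37 to 2.57), 2.14 (1.45 to 3.12) and 1.52 (1.00 to 2.26). The pair left out was Hexdc/Ogfod3 in the first 2 and Hes7/9130213A22Rik in the 24-30 nt library, where the value turned from below to above 1. Tail-to-tail stretches held 1002, 363 and 109 reads in that order, or 3769, 1937 and 96.9 per 100000 reads placed without a splice junction outside small RNA genes. Head-to-head stretches held 62, 44 and 35 (233, 235 and 31.1 per 100000). The library with most tail-to-tail reads, 19-30 nt, had 0 sense reads of the granulosa cell genes and 1 of the stroma, vessel and blood genes. It had 33 sense reads of the oocyte genes, against 27 and 37 in the 19-24 and 24-30 nt libraries. These marker counts were not scaled to the libraries. The 19-30, 19-24 and 24-30 nt libraries held 26584, 18744 and 112517 reads placed in that way, so similar counts are not similar shares. A link of these counts to the tail-to-tail reads was not tested.

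Density changed at the edge of the tail-to-tail overlaps. D10Wsu102e/Aldh1l2 was left out, and reads were counted in steps of 100 nt from each of 2306 edges beyond which an exon runs on for at least 100 nt. A read near several edges counted at each, so the intervals given here and for the head-to-head edges are too narrow. In the last 100 nt inside the overlap there were 1.90 sense and 2.03 antisense reads per 1000 positions (1.70 to 2.12 and 1.82 to 2.25). In the first 100 nt outside there were 0.287 and 0.190 (0.217 to 0.373 and 0.134 to 0.262). At 300 to 400 nt outside the antisense density was 0.0831 (0.0429 to 0.145) and the sense density 0.305. Inside, both strands kept to 1.90 to 2.77 reads per 1000 positions over 500 nt.

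At the 819 head-to-head edges the step was smaller. The last 100 nt inside held 0.427 sense and 0.802 antisense reads per 1000 positions, and the first 100 nt outside 0.480 and 0.203 (0.330 to 0.673 and 0.111 to 0.341). The sense density did not fall at the edge, and the antisense density was lower outside.

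**Figure D3:**
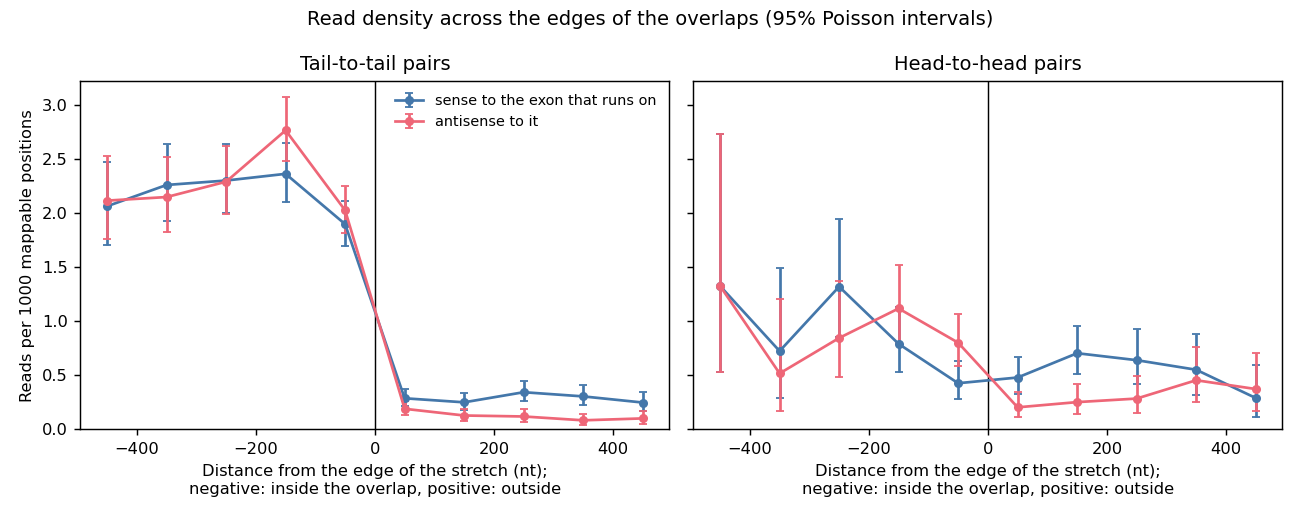
Reads per 1000 mappable positions (vertical axis) by distance from the edge of the stretch in nt (horizontal axis, negative inside the overlap), sense and antisense to the exon that runs on, with 95% Poisson intervals. Both strands of tail-to-tail pairs lie between 1.90 and 2.77 inside and at or below 0.343 outside. A read can count at several edges, so the intervals are too narrow.

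Reads of tail-to-tail pairs lay mainly in 3' UTRs. Where the 3' UTRs of both genes overlap there were 1041 reads in 160 pairs, 4.19 per 1000 positions (3.94 to 4.45). Where a 3' UTR faces coding sequence there were 358, 3.56 per 1000 (3.20 to 3.95). Where a 3' UTR faces a non-coding or mixed exon the density was 0.795 (0.590 to 1.05). In head-to-head pairs the density was 2.25 (1.79 to 2.79, 82 reads) where both 5' UTRs overlap and 1.03 (0.700 to 1.46, 31 reads) where a 5' UTR faces coding sequence.

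Longer overlaps more often held both strands. A longer stretch has more positions where a read of either strand can fall, and the shares of pairs were not corrected for this. Tail-to-tail pairs whose longest stretch was under 100 nt held both strands in 1 of 154 cases, those of 100 to 499 nt in 39 of 359 (10.9%) and those of 500 nt or more in 50 of 266 (18.8%). Density did not follow length: it was 1.57, 6.23 and 2.38 reads per 1000 positions in the same order. Head-to-head pairs held both strands in 0 of 124, 11 of 324 and 3 of 29 pairs, at densities of 0.723, 1.46 and 1.51. In the middle length class the tail-to-tail density (5.77 to 6.72) was above the head-to-head density (1.19 to 1.78).

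Lengths could be read in the 19-30 nt library. There 89.7% of the 1002 tail-to-tail reads were 20 to 23 nt long (Wilson interval 87.7 to 91.5) and 91.9% of the 62 head-to-head reads (82.5 to 96.5), and these intervals overlap. In coding exons outside the overlaps the share was 81.7% of sense reads (81.0 to 82.5) and 78.7% of antisense reads (77.6 to 79.8). Of these 10553 sense and 5460 antisense reads, 2066 and 678 came from D10Wsu102e, which was not left out here. Of its reads 77.15% were 20 to 23 nt long. Reads of 25 to 30 nt, the size of piRNAs, made up 3.89% in tail-to-tail (2.86 to 5.28) and 1.61% in head-to-head stretches (1 read, 0.285 to 8.59), against 9.79% and 13.9% of sense and antisense reads outside. The most frequent length was 22 nt in tail-to-tail and 21 nt in head-to-head stretches, the latter on 23 reads. In the 19-24 nt library, where inserts up to 22 nt can be sized, 219 of 233 sized tail-to-tail reads were 20 to 22 nt long (94.0%, 90.2 to 96.4) against 19 of 25 head-to-head reads (76%, 56.6 to 88.5), and these intervals do not overlap. There 130 of 363 tail-to-tail and 19 of 44 head-to-head reads were not sized. In the 24-30 nt library 102 of 109 were not sized and taken as 23 nt or longer.

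**Figure D4:**
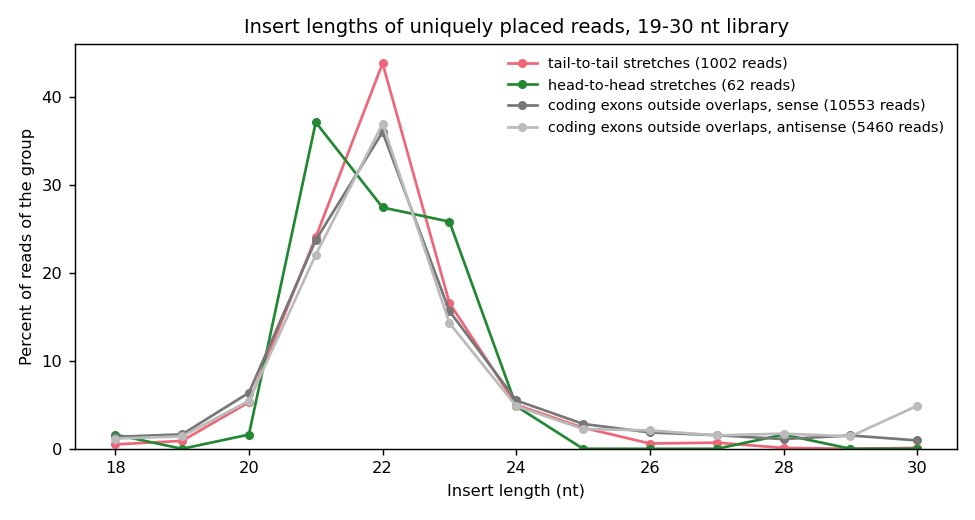
Percent of reads (vertical axis) at each insert length in nt (horizontal axis) in the 19-30 nt library, for tail-to-tail and head-to-head stretches and for coding exons outside any overlap. All 4 groups lie mainly at 20 to 23 nt, and the head-to-head curve rests on 62 reads.

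Reads starting with U made up 54.0% in tail-to-tail (50.9 to 57.1) and 56.5% in head-to-head stretches (44.1 to 68.1) of the 19-30 nt library. Sense reads of coding exons outside the overlaps gave 55.7% (54.8 to 56.7) and antisense reads 55.3% (54.0 to 56.6), and nested stretches 54.8% (37.8 to 70.8). Both the tail-to-tail and the head-to-head interval take in the sense and antisense values. The Pdzd11/Kif4 stretch, given for comparison, had 49.4% (44.3 to 54.6), below the interval of sense reads.

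Overlaps of 19 to 20 nt between 5' ends of opposite strands are what Dicer duplexes of 21 and 22 nt would leave. In tail-to-tail pairs 288 couples of distinct 5' ends in the same library overlapped by 1 to 30 nt, 14 of them by 19 and 11 by 20 nt. Here an overlap is the span between the 5' ends, whatever the insert lengths. Inserts shorter than the span share fewer bases than it. These 25 are 8.68% of all (exact interval 5.70 to 12.5), where an even spread over the 30 overlaps gives 6.67%, a value inside the interval. A 5' end can enter several couples, so the interval is too narrow. The other overlaps ranged from 3 to 16 couples with a median of 9, and 10 nt, the overlap known from paired piRNAs, had 5. The 25 couples at 19 or 20 nt came from 15 pairs, with 3 each in Ppib/Snx22, Bud31/Ptcd1, Gtf3a/Mtif3 and Fam13c/Phyhipl. In head-to-head pairs 0 of 8 couples overlapped by 19 or 20 nt, which allows a share of up to 36.9%. A difference between the classes could not be seen at this depth.

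**Figure D5:**
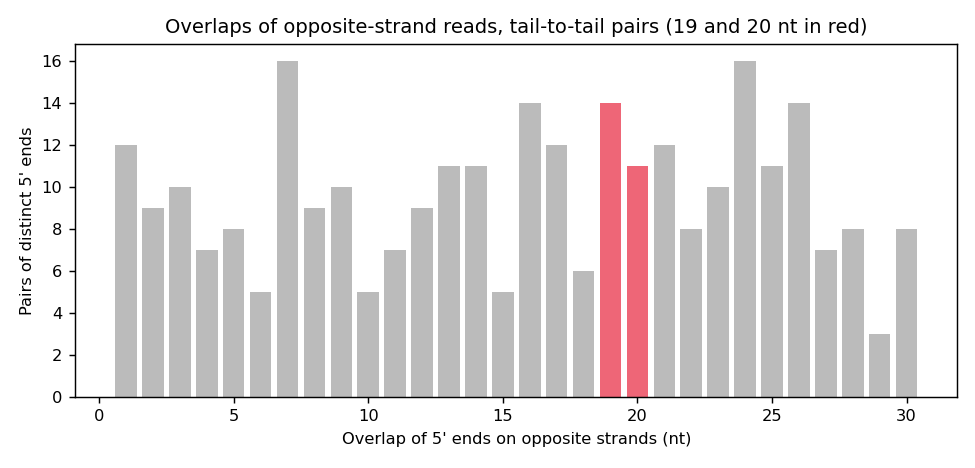
Couples of distinct 5' ends on opposite strands (vertical axis, count) in tail-to-tail pairs, 19 and 20 nt in red. The horizontal axis is their overlap in nt, taken as the span between the 5' ends whatever the insert lengths. The red bars, at 14 and 11, lie within the 3 to 16 of the other overlaps.

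Among sized inserts that matched over their whole length, 11 tail-to-tail couples overlapped by 19 or 20 nt, and in 2 of them, both of Gtf3a/Mtif3 and printed above, both inserts ran 2 nt past the overlap. In the head-to-head stretch of Pdzd11 and Kif4, measured in the same way for comparison, 510 reads lay in 832 nt with a lesser-strand share of 37.1%. There 45 of 728 couples overlapped by 19 or 20 nt, 6.18% (4.54 to 8.18), so that this stretch did not exceed an even spread either. It alone held more reads than the 141 of all other head-to-head stretches.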

How the data were processed

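The deposited files hold single reads of 26 nt (19-24 and 24-30 nt libraries) or 36 nt (19-30 nt library) with a quality per base, so their values are other than counts. Per the labels, total RNA was size-selected on gels, ligated, amplified by RT-PCR and sequenced on an Illumina 1G. An aligner and a build were not given in the sources used here. Read counts behind the planned comparisons were made from these reads.

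The 3' linker was trimmed (overlap of at least 4 called bases in 26 nt and 6 in 36 nt reads, up to 20% mismatches). Inserts of 18 to 30 nt were kept, and 26 nt reads without a linker were taken as 23 nt or longer. The first 20 nt, or whole inserts of 18 or 19 nt, had to match the 141767 transcripts of GENCODE M21 (GRCm38) perfectly on either strand. A unique read had a single place there, since no genome sequence was used, so introns, intergenic sequence and repeats outside transcripts were not searched. A read counted when its matched bases lay inside a stretch and outside GENCODE small RNA genes and RefSeq (GRCm38.p6) hairpins, which set aside 1, 182 and 0 reads in head-to-head, tail-to-tail and nested stretches. In the totals of a class, a read in the stretches of several pairs was given to the pair with more reads. Values of single pairs, counts of pairs and values by stretch length count such a read in each of its pairs. Tests of trimming, placing and counting were made on simulated data.

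Intervals are 95%: conditional binomial for ratios, Poisson for densities, Wilson or Clopper-Pearson for shares. PCR copies are not independent molecules. Pairs were named by rule: in each class the 10 with most reads, the 5 with most lesser-strand reads and up to 10 with a 19 or 20 nt overlap, and 3 nested pairs. The members and lists were chosen with earlier results of these data known. Software was Python 3.11.15, numpy 2.4.6, numba 0.67.0 and scipy 1.17.1.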

Additional observations from a re-analysis of the deposited data

How the results depend on the processing

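Over 12 results and 122 alternatives, 84 values kept to their counting interval or to within 1.5 times a count, 32 moved and 6 changed direction. The ratio of stretch to rest density, 0.479 in tail-to-tail pairs, rose above 1 with whole inserts matched (1.28) and in the 19-30 nt library alone (1.34). It also did so with all other exons as the rest (7.69) and without D10Wsu102e/Aldh1l2 (9.27, chosen after seeing the data). With distinct 5' ends it was 1.02, also above 1, but the interval (0.956 to 1.08) took in 1. The tail-to-tail ratio was 0.395 for stretches of 100 nt or more and 0.438 with small RNA genes kept. In the 19-24 nt library it was 0.902, with an interval that took in 1 (0.803 to 1.01), and in the 24-30 nt library 0.0565. The head-to-head ratio of 1.23 was 0.763 in the 24-30 nt library, where it turned to 1.52 (1.00 to 2.26) without Hes7/9130213A22Rik. It was 1.64 with whole inserts, 1.88 with distinct 5' ends, 1.80 in the 19-24 nt library, 3.49 against all other exons and 1.56 without Hes7/9130213A22Rik. Its interval took in 1 without the pair with most reads (1.08, 0.878 to 1.32), at plain length (1.19, 0.977 to 1.44), by 5' end (1.19, 0.985 to 1.44) and with coding transcripts only (1.23, 0.987 to 1.51). Apart from the D10Wsu102e reads, the cause of these moves was not tested. The lesser-strand share of tail-to-tail pairs was 30.6% with small RNA genes kept, and 28.4% and 1.83% in the 19-24 and 24-30 nt libraries, where the head-to-head share was 0% in the latter. With whole inserts matched, which leaves fewer reads, 96.5% of tail-to-tail and 97.6% of head-to-head reads were 20 to 23 nt long, 10 couples overlapped by 19 or 20 nt, 132 tail-to-tail and 28 head-to-head pairs held reads, and 5 head-to-head pairs held both strands. In the 19-24, 24-30 and 19-30 nt library alone, 109, 80 and 130 tail-to-tail pairs and 28, 34 and 28 head-to-head pairs held reads. Both strands were found in 48 and 2 tail-to-tail pairs of the first 2 libraries and in 3, 0 and 7 head-to-head pairs, and 19 or 20 nt overlaps numbered 2 and 0 in the first 2. Uniqueness in the genome was not run. No paired analysis was possible because each window has 1 library. At this depth the 141 head-to-head reads limit every value of that class.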
